A study of Mus musculus with 2 samples.

Results

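The calpains are intracellular cysteine proteases that are switched on by calcium. The classical pair, calpain-1 (Capn1) and calpain-2 (Capn2), each work as a large catalytic subunit bound to the same small regulatory subunit, calpain small subunit 1 (Capns1), and calpastatin (Cast) is their dedicated inhibitor. Calpain-3 (Capn3) is the form known from skeletal muscle, where it binds the giant protein titin, and loss of CAPN3 causes a limb-girdle muscular dystrophy in humans. In muscle these proteases are known for cleaving cytoskeletal proteins, for turnover of the sarcomere and for repair of the cell membrane. The gene Cast has nothing to do with the CAST mouse strain from which 1 parent of the animals came.

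The genes described here are these 5, taken by gene symbol from both deposited transcript tables, out of 17859 annotated mouse genes with at least 1 count. The tissue was gastrocnemius, the large calf muscle, of male B6CASTF1/J mice aged 4 days, an F1 cross, and total RNA (2 µg) was read as long reads in 1 library per replicate. There was 1 group of 2 biological replicates and no treatment, genotype contrast or control group. The labels give the replicates separate biosamples and 1 shared donor entry, so that the spread between these libraries may be technical. P-values of Fisher's exact tests cover counting error only and measure no spread between libraries or animals.

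Replicate 1 held 998659 counts on annotated mouse genes and replicate 2 held 1026257, and levels are given as CPM, the count scaled to these. The muscle markers Acta1, Ckm, Mylpf, Myh8 and Atp2a1 summed to 134996 counts in replicate 1 and 133924 in replicate 2, but single members differed. By Fisher's exact test across all genes, which called 9.74% of them, Atp2a1 (46378 and 26573 counts) and Myh8 (6744 and 4253) were called higher in replicate 1, and Acta1 (51040 and 65561), Ckm and Mylpf lower. Markers of some other cells differed as well. The 5 epidermal keratin and loricrin markers summed to 4 counts in replicate 1, where 4 of 5 were at 0, and to 869 counts in replicate 2. The 3 Schwann cell markers summed to 681 and 1854 counts, the 2 adipocyte markers to 118 and 269, and the 4 fibroblast markers to 35033 and 23701, in replicates 1 and 2. Of the fibroblast markers, Col1a1 and Col3a1 were called higher in replicate 1, Dcn lower (814 and 969 counts), and Pdgfra was not called (33 and 29). In the other lists, 0 of 3 macrophage and 0 of 2 satellite cell markers were called. Of 3 endothelial, 2 smooth muscle and 2 erythroid markers, 1 of each was called, lower in replicate 1. In a bulk library, fewer cells of a type and less RNA per cell cannot be told apart.

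Capn2 was the most counted of the 5 genes and Capn3 the least. Capn2 had 219 counts (219 CPM) in replicate 1 and 201 counts (196 CPM) in replicate 2, a mean of 208 ± 16.6 CPM (SD, n = 2 libraries). Cast followed with 130 and 107 counts in replicates 1 and 2, a mean of 117 ± 18.3 CPM. Capn1 had 94 and 51 counts, a mean of 71.9 ± 31.4 CPM. Capns1 had 41 and 53 counts, a mean of 46.3 ± 7.49 CPM. Capn3, the muscle form, had 4 counts in replicate 1 and 9 in replicate 2, a mean of 6.39 ± 3.37 CPM, which ranked 10260 of the 11027 genes with at least 10 counts in sum. With counts on partial (ISM) and genomic models left out, the mean of Capn3 was 3.36 ± 3.13 CPM. The libraries of neighbouring genes did not overlap from Capn2 to Cast, from Cast to Capn1 and from Capns1 to Capn3, whereas Capn1 and Capns1 changed places between the libraries, Capn1 being below Capns1 in replicate 2.

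Per kilobase of each gene's longest annotated transcript, the order in the middle changed. Each count is a long read placed on a transcript model, and whether counts rise with transcript length was not tested. This scale is therefore an alternative that does not replace CPM. The level was 64.4 ± 5.14 CPM per kb for Capn2, 29.0 ± 4.68 for Capns1, 23.5 ± 10.3 for Capn1, 22.8 ± 3.56 for Cast and 2.01 ± 1.06 for Capn3 (SD, n = 2 libraries). The means of Capns1, Capn1 and Cast differed from each other by less than the SD of Capn1 on this scale.

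**Figure D1:**
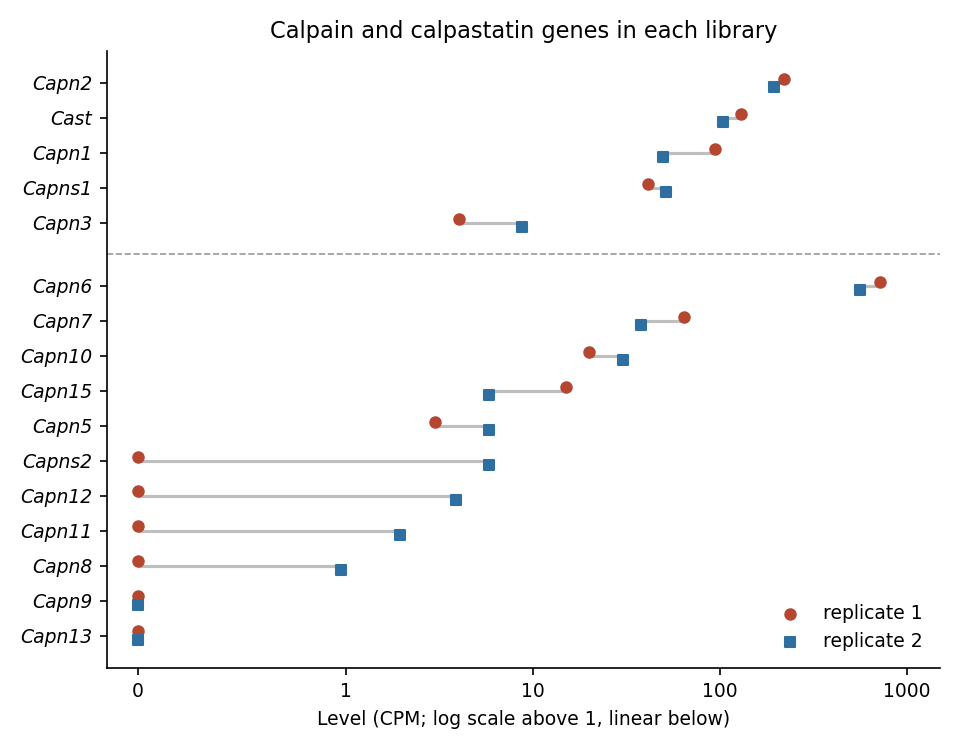
Level of each gene in CPM (horizontal axis, logarithmic above 1 and linear below), with replicate 1 as circles and replicate 2 as squares. Capn2, Cast, Capn1, Capns1 and Capn3 stand above the dashed line, from Capn2 at 208 CPM to Capn3 at 6.39 CPM on average, and 11 other calpain genes below it, led by Capn6 at 639 CPM.

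Each gene was then set against all other genes of its library in a Fisher's exact test (two-sided), and Benjamini-Hochberg adjustment ran over all 11027 genes. The test holds counting error only. It called 9.74% of all genes, 4.49% higher in replicate 1 and 5.25% lower. Of the 5 genes, 1 was called. Capn1 was 1.89-fold higher in replicate 1 than in replicate 2 (log2 ratio 0.92, Fisher's exact test, adjusted p = 0.00489). The log2 ratio of replicate 1 over replicate 2 was 0.16 for Capn2, 0.32 for Cast, -0.33 for Capns1 and -1.04 for Capn3, with Fisher adjusted p-values between 0.339 and 0.630. The call for Capn1 was lost once a biological spread was allowed for (edgeR's exact test with a preset coefficient of variation of 0.1, adjusted p = 0.142). The part of the cell type markers above, of which several also differed between the libraries, in the difference for Capn1 was not tested.

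The catalytic subunits shared a feature of structure. The annotated transcripts of Capn1, Capn2 and Capn3 each have a coding exon of 12 bases, and no count in either library held that exon as its own. These exons are shown with 15 bases of the neighbouring exons on each side, 5′ to 3′ on the strand of the gene, with the short exon in capitals. The sequences are from GENCODE M21 transcripts on mouse genome GRCm38 (mm10). The exon is exon 12 of Capn1 (chr19:5996779-5996790, minus strand), exon 11 of Capn2 (chr1:182482536-182482547, minus strand) and exon 12 of Capn3 (chr2:120495236-120495247, plus strand).
Capn1 exon 12: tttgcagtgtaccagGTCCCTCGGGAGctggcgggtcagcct
Capn2 exon 11: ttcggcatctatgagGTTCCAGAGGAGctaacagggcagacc
Capn3 exon 12: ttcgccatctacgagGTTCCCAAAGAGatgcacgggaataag
The short exons were alike in sequence. The exons of Capn2 and Capn3 had 9 of 12 bases in common, those of Capn1 and Capn2 8, and those of Capn1 and Capn3 7.

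For Capn1, the exon was held by 0 of the 91 counts of replicate 1 and 0 of the 47 of replicate 2 that ran across its place, which allows a share of up to 3.30% and 6.38%. For Capn2, 0 of 212 and 0 of 194 counts held it in replicates 1 and 2, which allows up to 1.42% and 1.55%. These limits cover counting error on the models only. They set no bound on the share among the molecules, since exons of this size were rarely found in these models. In all of these Capn1 and Capn2 counts the exon before the 12-base exon ran on into the intron, past its annotated end. All 91 and 47 Capn1 counts used a splice donor 11 bases further on (the added stretch is chr19:5997680-5997690), and all 212 and 194 Capn2 counts used a donor 17 bases further on (chr1:182484186-182484202). The added stretch of Capn2 could be read from an annotated transcript that keeps this intron, and is shown with the same flanks, with the added bases in capitals.
Capn2 model: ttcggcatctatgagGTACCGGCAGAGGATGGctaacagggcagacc
Both the annotated and the shifted donor of Capn2 are followed by GT. The 12-base exon could be turned into the 17-base stretch by 6 single-base changes, gaps included. Taken as written, the Capn2 models differed from the annotated transcript by 5 bases and the Capn1 models by -1, neither a multiple of 3. The annotated Capn2 frame has 700 codons before its stop, and the frame of the leading model meets a stop after 441, where the 12-base exon begins in codon 436. Whether the reads themselves held the 12 bases was not tested, since the models and not the reads were used.

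Across all genes, annotated internal exons of this size were rarely found in these models. Of 74 annotated exons of 3 to 12 bases with at least 20 informative counts in each library, 72 (97.3%) had no count in either library. The share without a count was 85.7% of 35 exons of 13 to 15 bases, 51.0% of 98 exons of 16 to 21 bases, 12.1% of 348 exons of 22 to 30 bases and 3.56% of 4303 exons of 31 to 60 bases. The 12-base exons of Capn1 and Capn2 are among these 72.

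**Figure D2:**
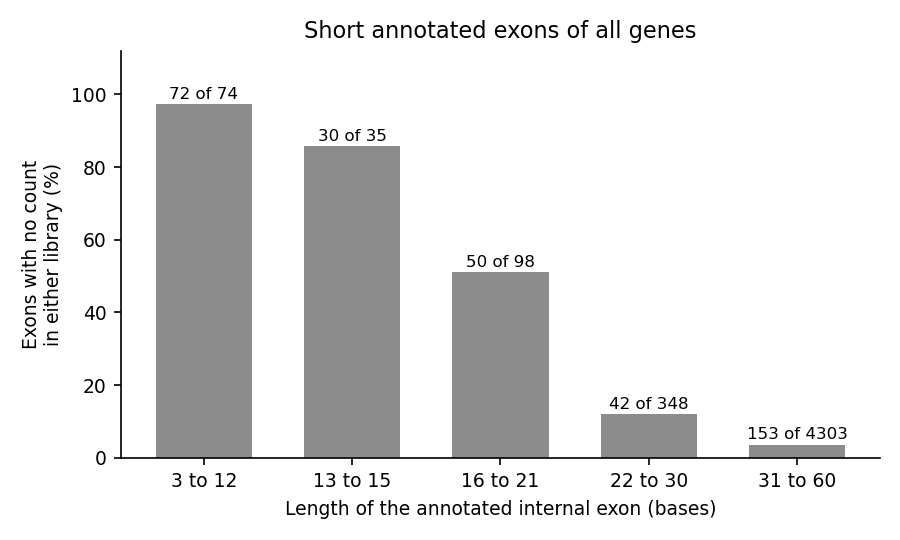
Share of annotated internal exons with no count in either library (vertical axis, percent) by exon length in bases (horizontal axis), over all genes. The numbers above the bars are exons without a count of exons with at least 20 informative counts in each library, and the share was 97.3% at 3 to 12 bases and 3.56% at 31 to 60 bases.

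With these junctions, no count of Capn1 or Capn2 was classed as Known, meaning an annotated chain of introns. Over all annotated genes, Known transcripts held 72.5% of the counts in replicate 1 and 75.4% in replicate 2. The leading chain of Capn2 held 203 of 209 full-chain counts (97.1%) in replicate 1 and 184 of 189 (97.4%) in replicate 2. It has 20 exons and shares 18 of the 20 introns of Capn2-201, and was classed in both libraries as NNC, a chain with at least 1 splice site outside the annotation. The other 11 Capn2 chains had 1 count each. Capn2 had 1 annotated first exon in use, with 212 and 186 counts in replicates 1 and 2. An alternative 134-base exon that GENCODE places at chr1:182508792-182508925 was on 0 of 212 counts in replicate 1, against 0 of 189 in replicate 2.

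Capn1 used a pair of first exons. The first exon of Capn1-201, with its donor at position 6015106 of chromosome 19, held 60 of 83 counts (72.3%) in replicate 1, against 32 of 42 (76.2%) in replicate 2. The exon upstream of it, with its donor at 6015736, held 23 and 9 counts (27.7% and 21.4%). The donor at 6015298, between them, held 0 and 1. The leading chain of Capn1 (56 of 85 and 29 of 44 counts, 65.9% in each library) and the second (23 of 85 and 9 of 44) differed in this first exon and carried the same shifted junction. The same leading chain was labelled NNC in replicate 1 and NIC, a new combination of annotated sites, in replicate 2, so that the class shares of Capn1 in the plot of transcript classes (NNC 61.7% in replicate 1 and 23.5% in replicate 2) cannot be read as a difference in structure. Exon 20 (117 bases) was skipped by 2 of 93 counts in replicate 1, against 0 of 48 in replicate 2.

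**Figure D3:**
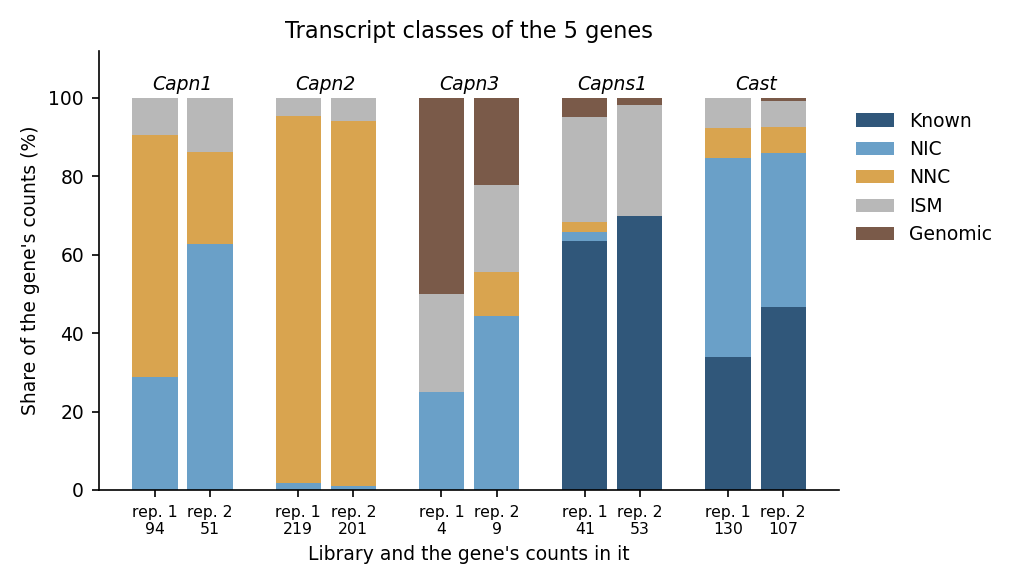
Share of each gene's counts by transcript class (vertical axis, percent) in each library, with the gene's counts under each bar. Known is an annotated intron chain, NIC a new combination of annotated splice sites, NNC a chain with a new splice site, ISM a part of an annotated chain and Genomic a model that the deposited tables class as genomic. Capn1, Capn2 and Capn3 had no Known counts, and Capns1 had 63.4% in replicate 1 and 69.8% in replicate 2.

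Capns1, the regulatory subunit, was read mostly as 1 annotated transcript. Capns1-203 held 23 of 28 full-chain counts (82.1%) in replicate 1 and 34 of 37 (91.9%) in replicate 2. Its 43-base first exon was reached by 25 of 41 counts in replicate 1, against 34 of 53 in replicate 2. The next chains, Capns1-207 (2 and 1 counts) and Capns1-208 (1 and 2 counts), were rare. The gene lies on chromosome 7 (30186936 to 30198811, minus strand). Its exons 5 to 10 have 58, 65, 69, 79, 117 and 59 bases, and the same 6 lengths follow each other in exons 16 to 21 of Capn1, 15 to 20 of Capn2 and 18 to 23 of Capn3. That end of the calpain subunits is known to hold calcium-binding EF-hands. Capn1 and Capn2 further share a run of 8 exon lengths nearer their start (exons 3 to 10 of Capn1).

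Capn3 was too lightly covered to measure its exon use. Its 13 counts over both libraries lay on 12 models, and none was Known. Muscle calpain-3 differs from the classical forms by inserts near its start and in its middle, the second of which, IS2, is coded in part by exons 15 and 16 and binds titin. Exon 15 is the short lysine-rich exon (chr2:120498968-120498985, GRCm38, plus strand), shown whole in capitals.
Capn3 exon 15: AAAAAGAAAAAAAACAAG
A single count in replicate 1 ran through all 24 exons of Capn3-202, exons 6, 15 and 16 included, and kept the intron after exon 12. A single count in replicate 2 ran from exon 10 to exon 24 with exons 15 and 16, and its intron passed over the 12-base exon 12. Exon 16 was overlapped by 2 counts in replicate 1 and 6 in replicate 2, and the last exon by 4 and 8. No count skipped exon 6, 15 or 16, but only 1 count in each library ran across exon 15. Exon 6 was reached by 1 count in replicate 1 and 0 in replicate 2. A share of skipping was therefore not detectable at this depth. In replicate 2, 3 counts started at position 120500242, just before exon 16. Of these, 2 used the donor of the first exon of Capn3-208 (120500320), and the other ran on without it into exon 16. A Genomic count of replicate 2 (chr2:120460345-120460850) touched no exon of Capn3-202. The neighbouring gene Ganc overlaps Capn3 on the same strand, and of its 14 and 19 counts in replicates 1 and 2 none carried an intron of Capn3-202.

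**Figure D4:**
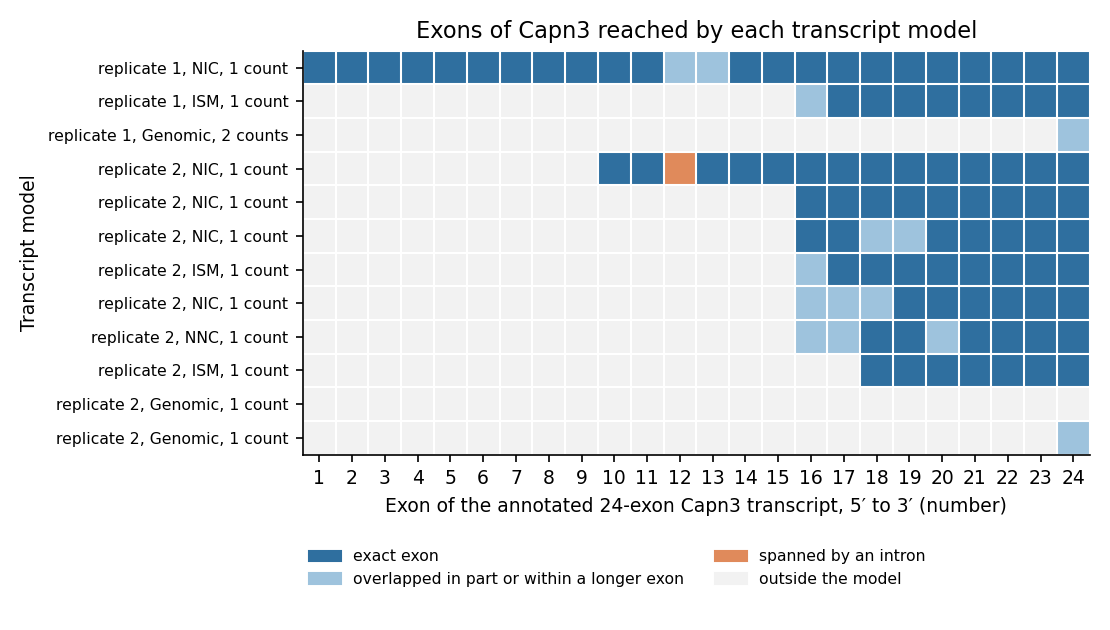
Each row is a Capn3 transcript model with its library, class and count, and each column an exon of the annotated 24-exon transcript from 5′ to 3′. Dark cells are exact exons, light blue cells are overlapped in part or lie within a longer exon, and the orange cell is the 12-base exon 12 spanned by an intron. A model of replicate 1 reaches exon 1, and the others that touch these exons begin at exon 10 or later.

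Cast, the inhibitor, had the most intron chains of the 5 genes. Full-chain counts fell on 40 intron chains, 30 in replicate 1 and 22 in replicate 2, of which 12 were found in both. Of the 40 chains, 28 had a single count over both libraries. The number of chains was not adjusted for depth, and the 6 chains of Capn3 all had a single count. The shared chains held 85.0% of the full-chain counts in replicate 1 and 89.9% in replicate 2. The leading chain over both libraries, the annotated Cast-207 with 29 exons, held 31 of 120 counts (25.8%) in replicate 1, against 37 of 99 (37.4%) in replicate 2, which was not called (Fisher's exact test, adjusted p = 0.974). Of all genes, 0.449% were called in that comparison. The second chain, unannotated with 31 exons, held 32 and 15 counts, and the next, also unannotated, with 29 exons, held 16 and 9.

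Cast transcripts began at 3 of 5 annotated first exons. The first exon of Cast-207, with its donor at position 74770546 of chromosome 13, held 58 of 120 counts in replicate 1, against 54 of 99 in replicate 2, a mean share of 51.4 ± 4.39% (SD, n = 2 libraries). The first exon of Cast-211, with its donor at 74808436 and the most upstream of the 3, held 53 and 37 counts, a mean of 40.8 ± 4.80%. The first exon of Cast-201, with its donor at 74807819, held 9 and 8 counts, a mean of 7.79 ± 0.41%. The other 2 annotated first exons had 0 counts. In both libraries the order was the same, although the Clopper-Pearson 95% intervals of the first 2 overlapped (39.1 to 57.6% and 35.1 to 53.5% in replicate 1, 44.2 to 64.6% and 27.9 to 47.7% in replicate 2). None of the 6 first exons of Cast and Capn1 was called between the libraries (Fisher's exact test, adjusted p = 1), beside 0.216% of all first exons tested. The choice of first exon changes the annotated protein start: 270 coding bases lie before the place of the 57-base exon described next in Cast-211, 225 in Cast-201 and 21 in Cast-207.

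The promoter windows of the 2 leading first exons are shown because both were in use (RefSeq, build GRCm38.p6, 250 bases before to 50 after the start site, minus strand). They are chr13:74770687-74770986 for the Cast-207 type and chr13:74808711-74809010 for the Cast-211 type, and capitals mark any match to the TATA box TATAAA, the GC box GGGCGG or the E-box CAGCTG on either strand.
Cast-207 type: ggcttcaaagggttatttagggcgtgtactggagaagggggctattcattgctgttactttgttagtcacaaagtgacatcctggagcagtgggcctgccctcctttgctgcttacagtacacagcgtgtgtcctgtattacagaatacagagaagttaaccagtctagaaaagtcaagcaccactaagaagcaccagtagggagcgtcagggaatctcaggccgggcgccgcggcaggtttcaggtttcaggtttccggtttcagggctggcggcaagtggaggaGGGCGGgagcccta
Cast-211 type: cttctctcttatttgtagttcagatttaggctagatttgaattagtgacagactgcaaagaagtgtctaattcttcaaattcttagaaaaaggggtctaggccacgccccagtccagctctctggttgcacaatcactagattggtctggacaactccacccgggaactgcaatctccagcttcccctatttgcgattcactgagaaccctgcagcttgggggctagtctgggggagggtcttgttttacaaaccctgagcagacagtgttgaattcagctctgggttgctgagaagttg
The Cast-207 type window held 1 of these motifs, GGGCGG, after the start site, and the Cast-211 type window none. Of 32851 mouse promoter windows of this length, 35.7% held GGGCGG, 13.6% TATAAA and 16.3% CAGCTG. The windows had 10 and 3 CG dinucleotides and a GC content of 53.3% and 47.3%, beside medians of 7 and 52.7% over all windows.

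No Capn3 exon had enough counts for its inclusion to be judged. Among internal exons of the 5 genes with at least 20 informative counts in each library, only 1 was included at an intermediate level. That level was between 5 and 95% in both libraries, and the exon was one of 57 bases near the start of Cast. This 57-base exon is coding in Cast-208 and Cast-211 (chr13:74748805-74748861, GRCm38, minus strand) and its length is a multiple of 3. It is shown in capitals with 15 bases of its neighbours in Cast-211.
Cast 57-base exon: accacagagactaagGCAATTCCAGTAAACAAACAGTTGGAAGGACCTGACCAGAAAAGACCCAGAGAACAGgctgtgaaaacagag
It was on 14 of 124 counts (11.3%, 95% interval 6.31 to 18.2%) in replicate 1, against 16 of 101 (15.8%, 9.33 to 24.4%) in replicate 2, a mean of 13.6 ± 3.22%. The difference between the libraries was not called (Fisher's exact test, adjusted p = 1), beside 0.0388% of all 18026 exons tested.

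The inclusion of this exon went with the first exon of the same molecule. Among counts from the Cast-211 first exon, 11 of 53 (20.8%, 95% interval 10.8 to 34.1%) held it in replicate 1 and 11 of 37 (29.7%, 15.9 to 47.0%) in replicate 2. Among counts from the Cast-207 first exon, 1 of 58 (1.72%, 0.0436 to 9.24%) held it in replicate 1 and 4 of 54 (7.41%, 2.06 to 17.9%) in replicate 2. From the Cast-201 first exon it was on 1 of 9 and 1 of 8. The share was higher with the Cast-211 first exon than with the Cast-207 first exon in 2 of 2 libraries, with intervals that did not overlap in replicate 1 and did in replicate 2. With 2 libraries the smallest two-sided p of an exact sign-flip permutation is 0.5, so no test over libraries was made.

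**Figure D5:**
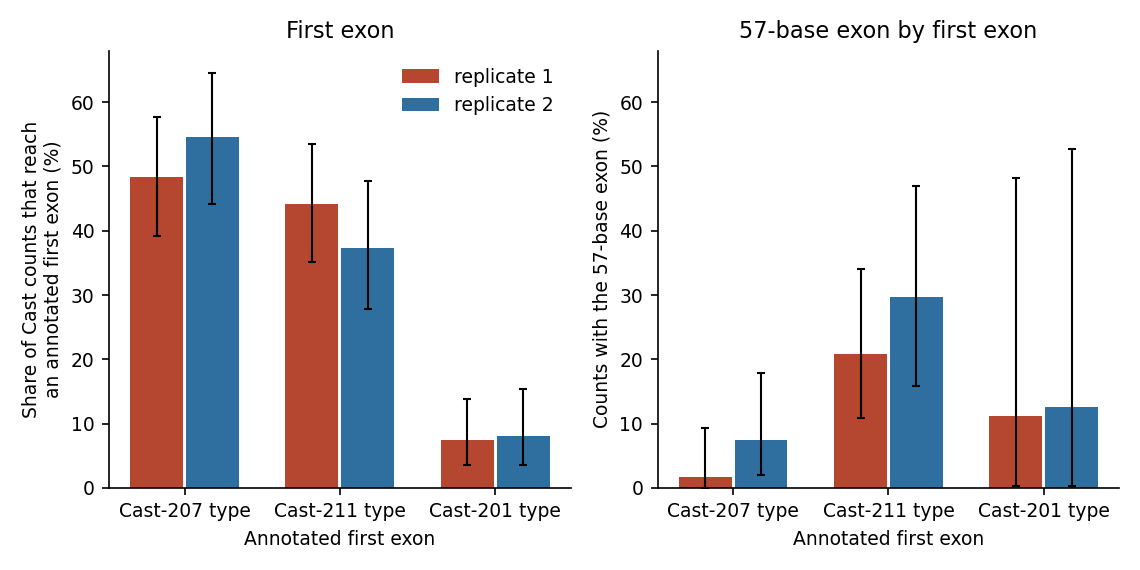
Left, share of Cast counts that begin at each annotated first exon. Right, share of those counts that hold the 57-base exon, both in percent with Clopper-Pearson 95% intervals, replicate 1 left of replicate 2. The Cast-207 and Cast-211 first exons each held between 37.4% and 54.5% of the counts, and the 57-base exon was on 20.8% and 29.7% of the counts from the Cast-211 first exon against 1.72% and 7.41% from the Cast-207 first exon.

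Elsewhere Cast differed by the choice between splice acceptors 3 bases apart (chr13:74704203-74704205). The 3 alternative bases are in capitals.
Cast tandem acceptor: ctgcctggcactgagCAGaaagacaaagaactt
The acceptor that keeps them was used by 94 of 128 counts (73.4%) in replicate 1, against 79 of 106 (74.5%) in replicate 2, a mean of 74.0 ± 0.77%. Both forms are annotated, that with these bases in Cast-201, Cast-207, Cast-210, Cast-211 and Cast-212, and that without them in Cast-202 and Cast-208. By first exon the share that keeps them was 63.8% and 77.8% for Cast-207 and 83.0% and 70.3% for Cast-211 in replicates 1 and 2, with no order common to both libraries. A 72-base exon was on 58 of 62 counts in replicate 1, against 44 of 45 in replicate 2. The other annotated cassette exons of Cast (36, 39, 63, 96 and 99 bases) were on at least 97.8% of their counts in each library.

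Within a library, the shares of these genes need no scaling to library size, but they still compare genes of unlike transcript length. Cast made up 130 of 443 counts on Capn1, Capn2 and Cast (29.3%, 95% interval 25.1 to 33.8%) in replicate 1 and 107 of 359 (29.8%, 25.1 to 34.8%) in replicate 2. Capn2 made up 219 of 313 counts on Capn1 and Capn2 (70.0%, 64.6 to 75.0%) in replicate 1 and 201 of 252 (79.8%, 74.3 to 84.5%) in replicate 2. Capns1 made up 11.6% (8.44 to 15.4%) in replicate 1 and 17.4% (13.3 to 22.1%) in replicate 2 of the counts on Capn1, Capn2 and Capns1, so that transcripts of the shared small subunit were fewer than those of the large subunits in both. Per kilobase of transcript, the alternative scale above, the mean share was 20.6 ± 0.316% for Cast and 25.1 ± 6.31% for Capns1. These are counts of transcripts and not of protein.

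Beside the classical pair, the calpain with the most counts in this muscle was Capn6, a family member that lacks the active-site cysteine and is known from embryonic muscle. Capn6 had 714 counts in replicate 1 and 577 in replicate 2 (639 ± 108 CPM), 63.0% and 62.2% of the counts on all calpain large subunit genes. Among the 11 other calpain genes, 4 had enough counts for the test. Capn6 was called higher in replicate 1 (log2 ratio 0.35, Fisher's exact test, adjusted p = 0.000552), and this too was lost with a preset coefficient of variation of 0.1 (edgeR's exact test, adjusted p = 0.581). Capn7 (64 and 39 counts), Capn10 (20 and 31) and Capn15 (15 and 6) were not called. Capn5 had 3 and 6 counts. Capns2 (6 counts), Capn12 (4), Capn11 (2) and Capn8 (1) were counted in replicate 2 only. Over all genes, absence from 1 library was not rare, since 15526 of 17859 genes were counted in replicate 1 and 16344 in replicate 2. Replicate 2 had 869 counts of epidermal markers against 4 in replicate 1, and the part of other cells in these calpain genes was not tested. Capn9 and Capn13 had 0 counts.

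Other parts of the calpain pathway were taken from gene lists. Of 11 partners and reported substrates of calpain-3, 0 were higher in replicate 1 and 3 lower (Aldoa, Cryab and Ankrd1), beside 4.49% higher and 5.25% lower over all 11027 genes, with a median log2 ratio of 0.16 against 0.04 over all genes tested. The highest were Aldoa, a glycolytic enzyme (5788 ± 268 CPM), Cryab, a small heat shock protein (290 ± 77.5 CPM), and Ryr1, the calcium release channel (198 ± 15.7 CPM), and the lowest was Ankrd1, a titin-binding ankyrin repeat protein (3 and 18 counts in replicates 1 and 2). Titin itself, Ttn, had 158 and 160 counts. Of 9 cytoskeletal calpain substrates, 1 was higher (Des, log2 ratio 0.35) and 1 lower (Dsp, 0 and 12 counts), beside the same 4.49% and 5.25%, with a median of 0.02. Dsp, a desmosome gene, was low in the library in which the epidermal markers had 4 counts against 869, and their part in it was not tested. Des (desmin, 4554 ± 781 CPM), Vim (vimentin, 542 ± 9.81 CPM) and Plec (plectin, 168 ± 24.2 CPM) were the highest and Dsp (desmoplakin) the lowest. All these calls are from the same Fisher's exact test over all genes.

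Of 8 lysosomal cathepsins, another class of proteases, 1 was called lower in replicate 1 (Ctsb, log2 ratio -0.54) and 0 higher, beside 9.74% of all genes called in either direction, with a median log2 ratio of -0.35. Ctsb (693 ± 180 CPM), Ctsd (658 ± 55.1 CPM) and Ctsa (179 ± 31.5 CPM) were the highest and Ctss (5 and 7 counts) the lowest. Of the 3 cystatins, which inhibit cathepsins, Cst3 (217 ± 31.4 CPM) was the highest, Cstb had 23 and 36 counts, and Cst6 had 0 and 9 counts, and none of the 2 tested was called. Of 7 annexins and membrane repair genes, 4 were lower in replicate 1 (Anxa1, Anxa2, Anxa5 and Cav3, log2 ratios -0.85 to -0.36) and 0 higher, beside 5.25% of all genes lower, with a median of -0.36. This list had a median of 157 CPM, the calpain-3 list 156 CPM and the cathepsins 139 CPM, against 27.8 CPM over all genes tested. Among genes with at least 50 counts in sum, the test called a larger share, 1091 of 5949, with 545 higher in replicate 1. The shares over all genes are therefore a low comparison for these lists. The epidermal (5 of 5), Schwann cell (3 of 3) and adipocyte (2 of 2) markers were also called lower in replicate 1. So were 3 of 5 muscle, 1 of 3 endothelial, 1 of 2 smooth muscle, 1 of 2 erythroid and 1 of 4 fibroblast markers. Another 2 muscle and 2 fibroblast markers were called higher, and no macrophage or satellite cell marker was called. The part of these cells in the annexin values was not tested. Anxa6 (635 ± 13.6 CPM), Anxa2 (582 ± 103 CPM) and Anxa5 (389 ± 84.7 CPM) were the highest and Myof (myoferlin, 12 and 5 counts) the lowest. With a preset coefficient of variation of 0.1 in edgeR's exact test, 1 gene of these 6 lists was called, the other calpains included, against 11 by the Fisher test.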

How the data were processed

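Long-read RNA libraries of 2 biological replicates of 1 group were used, 1 library each. The deposited tables give raw counts of reads per transcript model with TALON-style classes, per the file headers, with exon coordinates on mm10 and GENCODE M21 identifiers. Which aligner and tool versions made them is not given in the sources used here. Counts on annotated mouse genes were summed over all classes and scaled to CPM. Total counts were 1066347 and 1100253, with 93.7% and 93.3% on annotated genes, and the rest stayed out of library sizes and tests. Models were matched between libraries by chromosome, strand and introns. The deposited length and coordinate columns, which are other kinds of number than counts, gave only model structure, and since 301 of 306 model ends of these genes lay on annotated exon boundaries, transcript ends were not analysed.

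Genes with at least 10 counts in sum, and exons, first exons and leading chains with at least 20 in each library, were compared by two-sided Fisher's exact tests with Benjamini-Hochberg adjustment at 0.05 over all features (Python 3.11.15, scipy 1.17.1). Log2 ratios used a prior count of 0.5. An exon's share is the counts on models with that exact internal exon over these plus counts whose intron spans it. A first-exon donor is one that no annotated internal exon uses, which leaves out the first exon of Capns1-203. Intervals are exact Clopper-Pearson at 95%, and a count of 0 allows up to 3 counts. Both cover counting error only. Functions were tested on simulated data. Alternatives used edgeR 4.0.16 and DESeq2 1.42.0. The members and lists were chosen with earlier results of these data known. The rule for named genes took the 5 members and, of each list, the 3 highest, the lowest and those at 0. Ttn and the called list members were named after their values were seen.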

Additional observations from a re-analysis of the deposited data

Results flagged for a closer look

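Counts on unannotated loci of the opposite strand lay over 3 of the 5 genes above the limit of 3 that a count of 0 allows, and there are no control samples to set beside them. The locus of Capns1 held 13 such counts in replicate 1 and 7 in replicate 2. Of these, 6 and 3 counts had an intron at the coordinates of the last intron of Capns1-203 (chr7:30187534-30187670). The locus of Capn2 held 0 in replicate 1 and 6 in replicate 2, and that of Capn3 held 0 in replicate 1 and 6 in replicate 2. None of the counts opposite Capn2 and Capn3 had an intron of the gene's reference transcript.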

How the results depend on the processing

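No paired analysis was possible because the series has a single group. Of 150 values under an alternative, 130 stayed within the replicate spread, on their side of the threshold or within 1.5 times the count. Of the log2 ratios, the only values that could change direction, 0 did so. Some of these outcomes were fixed in advance. With 2 libraries, a level or share from 1 of them always lies within the SD of their mean. A changed prior count leaves the Fisher p-values as they are. Per kb, mean levels were 23.5 (Capn1), 64.4 (Capn2), 2.01 (Capn3), 29.0 (Capns1) and 22.8 (Cast), and the shares were 20.6% for Cast and 25.1% for Capns1, an alternative chosen after seeing the data. With Known, NIC and NNC counts only, Capn2 was at 225 CPM, Capns1 at 36.7 CPM and Capn3 at 3.36 CPM, and 12 cassette exons and 18 first exons were called in place of 7 and 7. With ISM counts added, 73 leading transcripts were called in place of 24. A preset coefficient of variation of 0.1 or 0.2 gave 172 or 56 called genes in place of 1074, and 1 or 0 list members in place of 11. The cause was not tested, except that the preset spread widens the error by construction. Isoform calls on the 5 genes stayed at 0 under every alternative run. Leaving out a replicate gave 49.7 to 94.1 CPM for Capn1, 196 to 219 for Capn2, 4.01 to 8.77 for Capn3, 41.1 to 51.6 for Capns1 and 104 to 130 for Cast. Without replicate 1, Capns1 stood above Capn1. Depth limits Capn3 most, with 13 counts in all.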
